A study of Mus musculus with 6 samples.

Results

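The genes described here encode the translation initiation and elongation factors of the mouse cytoplasm. They were chosen by name: every protein-coding gene whose symbol begins with Eif1 to Eif6, Eef1 or Eef2, apart from the Eif2ak kinases. This gave 67 of the 55487 genes in the count table, of which 21936 are protein-coding. They fall into 5 Eif1, 11 Eif2, 14 Eif3, 18 Eif4, 4 Eif5, 1 Eif6 and 14 Eef genes. Some carry the name without being factors themselves, such as the 6 methyltransferases that modify elongation factors, the kinase Eef2k, the repressors of the Eif4ebp family, Eef1e1 of the tRNA synthetase complex and Eif1ad, which shares a domain with Eif1a.

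RNA was sequenced from alphaTC1 cells, a mouse glucagonoma line that makes glucagon. The columns of all 6 libraries are named WT, a mark that the sample titles do not explain. A set of 3 libraries came from cells given G786-1089, called the inhibitor here, and 3 came from cells given DMSO. The study sequenced RNA after its compound 1, a small molecule against the Tudor domain of the splicing factor SMNDC1. The code G786-1089 does not appear in its text. It calls compound 1 non-selective, reports effects on the related protein SMN, and saw cell death with longer treatment. The labels give neither dose nor duration, and they do not say whether the libraries of a group came from separate cultures. For its cell culture work in general the study describes treatments within a replicate as sharing 1 batch of split cells and being handled together. The p-values measure the spread between these libraries, which may be technical. All results come from this 1 cell line. The comparison asks which factor genes differ in RNA level between inhibitor and vehicle.

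Translation begins when eIF2, loaded with GTP and the initiator tRNA, joins the small ribosomal subunit together with eIF1, eIF1A, eIF3 and eIF5. The eIF4 factors bring the mRNA: eIF4E holds the cap, eIF4G is the scaffold, and the helicase eIF4A with its cofactor eIF4B unwinds the leader. After the start codon is found, eIF5B joins the large subunit, and eEF1A and eEF2 drive elongation. In secretory cells of the islet, the supply of active eIF2 is the best known point of control, because kinases that phosphorylate eIF2 lower general synthesis and favour the mRNA of the transcription factor ATF4.

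The results below turn on the helicase genes Eif4a1 and Eif4a2, whose ratio shifted, and on Eif1, Eif1ax and Eif5a, whose calls held under every alternative tried. The DNA upstream of these 5 genes is shown. Eif3g, Eif6 and Eif4ebp1 also kept their calls under every alternative, but their upstream DNA is not shown. Each run is 120 bases, 5′ to 3′ on the gene's own strand, ends just before the most upstream annotated start, and comes from the RefSeq promoter windows of GRCm38.p6. Capitals mark ACGTG or GCGTG on either strand, the core letters read by hypoxia-inducible factors, where the whole motif lies in the run; ACGTG is also part of the E-box CACGTG.
Eif4a2, chr16:23107324-23107443, plus strand: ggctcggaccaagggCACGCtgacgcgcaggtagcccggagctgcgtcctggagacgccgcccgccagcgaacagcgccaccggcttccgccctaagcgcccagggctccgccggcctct
Eif4a1, chr11:69672424-69672543, minus strand: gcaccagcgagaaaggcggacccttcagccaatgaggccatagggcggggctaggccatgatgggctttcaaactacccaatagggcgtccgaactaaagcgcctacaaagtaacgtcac
Eif1, chr11:100319765-100319884, plus strand: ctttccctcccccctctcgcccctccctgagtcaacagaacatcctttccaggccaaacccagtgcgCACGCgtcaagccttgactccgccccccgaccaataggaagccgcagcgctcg
Eif1ax, chrX:159372058-159372177, plus strand: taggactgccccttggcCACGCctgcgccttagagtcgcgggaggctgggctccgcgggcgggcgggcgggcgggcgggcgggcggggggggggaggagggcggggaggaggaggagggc
Eif5a, chr11:69921959-69922078, minus strand: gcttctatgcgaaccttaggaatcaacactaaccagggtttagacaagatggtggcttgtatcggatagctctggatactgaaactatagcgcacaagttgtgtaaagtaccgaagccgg

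For Eif5a the RefSeq table lists 6 windows, and the one nearest the 5′ end of the annotated gene is shown. The runs of Eif4a2, Eif1 and Eif1ax hold 1 such core each, and those of Eif4a1 and Eif5a hold none, but this contrast holds only within the runs. In the wider windows described next, Eif4a1 has 3 cores, Eif1 and Eif1ax have 2 each, and Eif4a2 and Eif5a have 1 each. A window of 300 bases, from 250 before to 50 after the start, was matched by symbol for 49 of the tested factor genes and for 9099 tested protein-coding genes. The ACGTG or GCGTG core was present in 36 of the 49 factor windows (73.5%) and in 65.0% of all windows, so the letters were common everywhere. The composite TGATGNAA, read by ATF4 with C/EBP proteins, was found on either strand in 1 factor window (2.04%), that of Eif2s3x, against 2.04% of all windows. A C at the annotated start followed by at least 4 pyrimidines, the form of a 5′ terminal oligopyrimidine tract, occurred in 2 factor windows (4.08%), those of Eif2s3x and Eif3f, against 2.34% of all. Neither Eif2s3x nor Eif3f was called in the comparison below. The tract count needs annotated starts that are exact to the base, and annotations can differ. The RefSeq start lay 46 bases from the end of the annotated gene in Eif4a3 and 7427 bases in Eef1a1. Genes without the form here may therefore still carry a tract. Eif4ebp1 was not matched.

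Libraries held between 59070705 and 94747943 counts, and every inhibitor library was deeper than every DMSO library. Levels are given as CPM, counts scaled to a common library total with TMM factors, or, between genes, as the authors' FPKM, which is per length. Markers of alpha cells were present, with 11 detected. Their summed level was 5577 to 6317 CPM with the inhibitor and 25210 to 28030 CPM with DMSO, led by Gcg, whose fitted log2 fold change was -2.76 (SE 0.10, edgeR adjusted p = 0.000102). Of 5 markers of other islet cells, Ins1, Sst and Ppy were at 0 in all libraries and the summed level of the list stayed at or below 1.4 CPM. Summed leukocyte markers ranged from 8.05 to 19.5 CPM with the inhibitor and 5.78 to 8.55 CPM with DMSO, almost all from Cd68, and summed exocrine markers from 27.3 to 44.4 and 9.01 to 22.0 CPM, almost all from Cela1. Fibroblast markers summed to at most 4.91 CPM and endothelial markers to at most 1.13 CPM. The part of these differences in the results below was not tested.

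Of the 67 genes, 64 passed the filter on low counts. Those not tested were Eif2s3y, the Y-linked copy of the gene for the gamma subunit of eIF2, and the cap-binding gene Eif4e1b, both at 0 counts in all 6 libraries, and Eif4ebp3, with 7 counts in inhibitor library A and 0 elsewhere. Among the 64, 17 differed at an adjusted p under 0.05 (26.6%), 6 higher and 11 lower with the inhibitor (edgeR quasi-likelihood test, Benjamini-Hochberg over 15082 genes). Over all tested genes 14.8% were called, 6.98% higher and 7.8% lower. Factor genes are well expressed, and among the 4262 tested genes at or above the lower quartile of their log2 CPM, 34.9% were called. The 26.6% lay between these backgrounds, but it includes the factor genes below that quartile. It is therefore not a like comparison with the 34.9%. By family the shares were 28.6% for Eif3, 31.2% for Eif4, 14.3% for Eef and 10% for Eif2. These cover all tested genes of a family, low ones included, so they are not set against the well-expressed genes. The 3 small families rest on few genes: 2 of 5 Eif1 genes (40%), 2 of 4 Eif5 genes (50%) and the 1 Eif6 gene were called. With a replicate block by column letter 10 factor genes were called, 4 higher and 6 lower, beside 8.17% of all tested genes. With scaling by library size alone the split turned to 13 higher and 6 lower, because that scaling moved the median of all genes from 0.04 to 0.25 on the log2 scale. In that fit 16.1% of all tested genes were called.

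The study's own thresholds were an adjusted p no higher than 0.1 and a change of 1 or more on the log2 scale in either direction, and 6 factor genes passed them in the edgeR fit, beside 10.4% of all tested genes. They were Eif5a, Eif4a2, Eif1ax, Eif1, Eif2d and Eef1akmt1. The inhibitor libraries lay wholly above the DMSO libraries in 12 factor genes (18.2% of all tested genes did) and wholly below in 22 (18.5% of all). Among the 4262 well-expressed genes these shares were 23.6% and 33.4%, against 18.8% and 34.4% of the 64 factor genes. The share below was near that background, but the 64 include genes under the cut that defines it. In 30 the groups overlapped. The median log2 fold change over the 64 was -0.10 (0.11 with scaling by library size alone) against 0.04 over all tested genes (0.25 with that scaling) and -0.09 over the well-expressed genes, close to the factor genes.

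**Figure D1:**
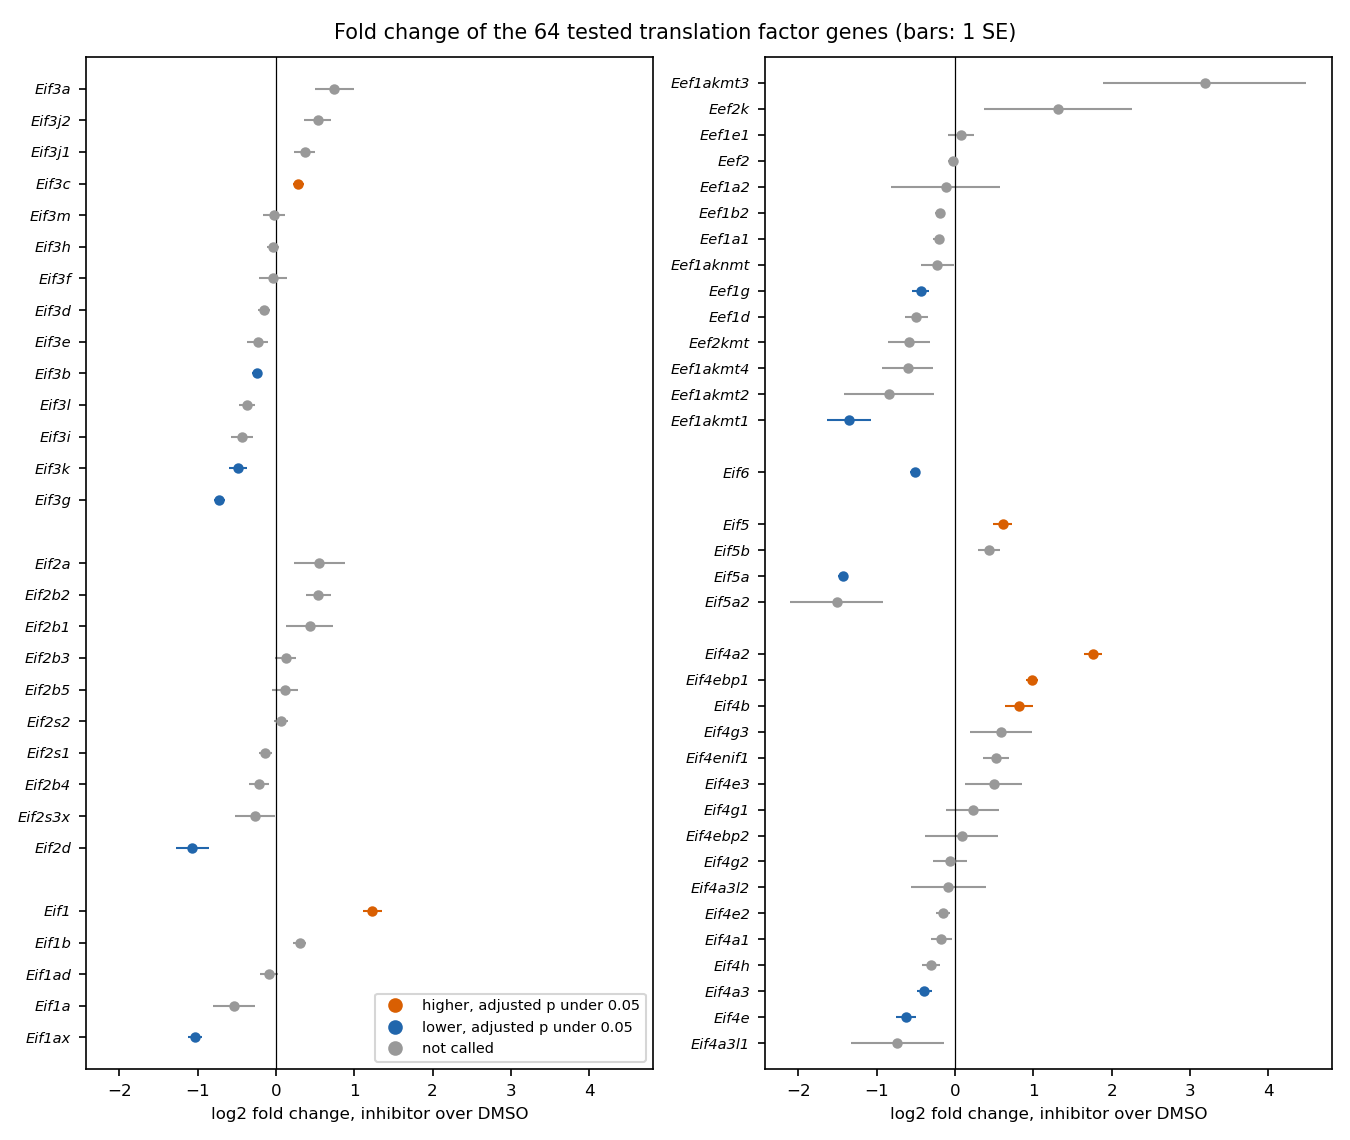
Log2 fold change of inhibitor over DMSO (horizontal axis) for each of the 64 tested factor genes, grouped by name family, with bars of 1 standard error; orange and blue points mark the 6 genes called higher and the 11 called lower, grey points the 47 not called. Eif4a2 at 1.76 and Eif5a at -1.43 lie far from 0 with short bars, while Eef1akmt3 at 3.19 has the longest bar.

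Of the 17 called genes, 7 kept their call and direction under all 17 alternatives tried, among them the removal of each library in turn: Eif4a2, Eif1 and Eif4ebp1, which were higher, and Eif5a, Eif1ax, Eif3g and Eif6, which were lower. The other 10 lost the call when some single library was removed, and Eif4e, Eif3k, Eif3b, Eif4a3 and Eef1g also lost it with library size alone. There the log2 fold change of Eif3b was close to 0, at -0.04 (edgeR adjusted p = 0.71), and that of Eif4a3 was -0.19. The replicate block ended the calls of Eif2d, Eif3b, Eif3c, Eif3k, Eif4e, Eif5 and Eef1g. The number of factor genes called was 7 without inhibitor library A, 15 without inhibitor B, 8 without inhibitor C, 11 without DMSO A, 8 without DMSO B and 7 without DMSO C. A fit with 5 libraries has fewer samples, and the share called over all genes fell with it, to between 7.84% and 9.76%.

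**Figure D2:**
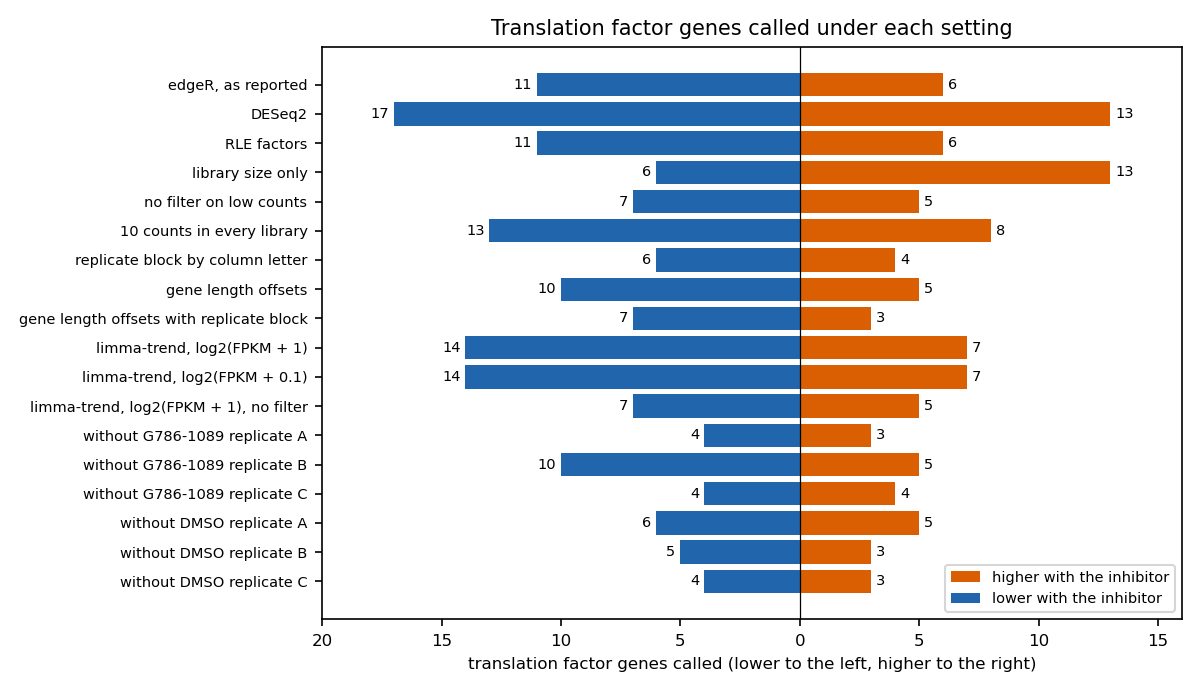
Number of factor genes called higher and called lower with the inhibitor under each setting, from the edgeR fit with TMM through the alternatives and the removal of each library. The count called is 17 in the first fit (14.8% of all tested genes) and 30 with DESeq2 (24.3%). It is 7 at the lowest among the removals, and library size alone turns the split to 13 higher and 6 lower.

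**Figure D3:**
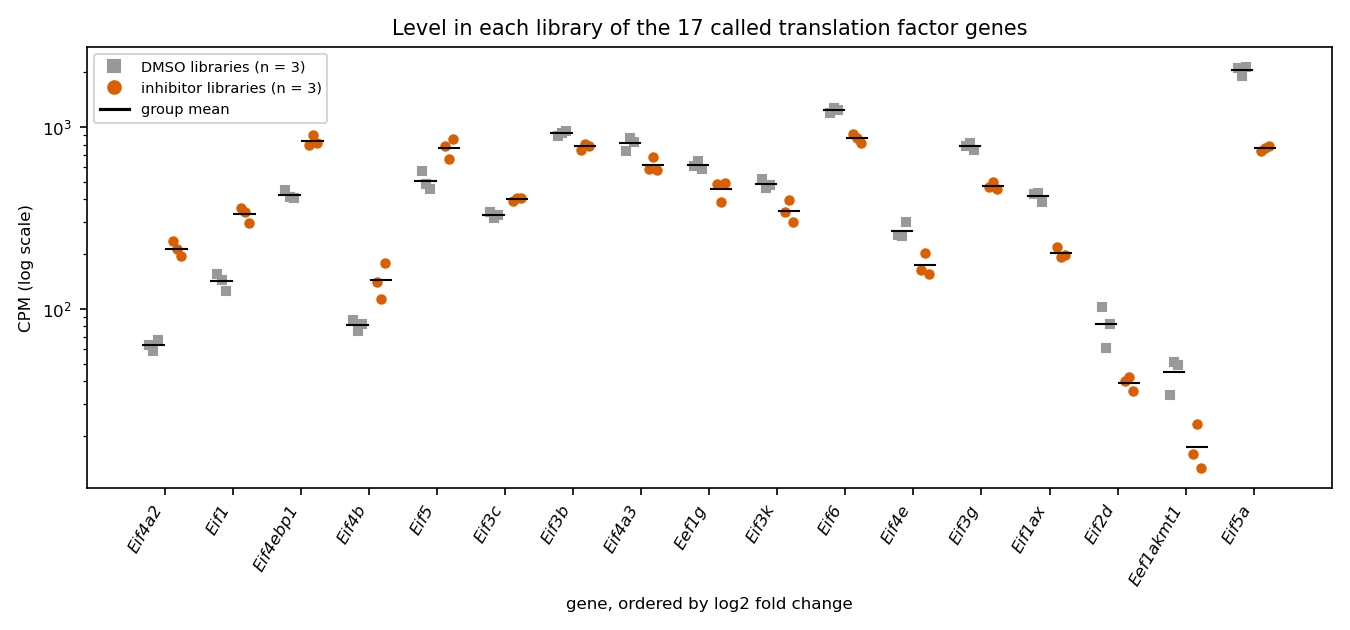
CPM on a log axis in each of the 3 DMSO libraries (grey squares) and 3 inhibitor libraries (orange circles) for the 17 called factor genes, ordered from the most raised to the most lowered, with group means as black lines. In each gene the groups do not overlap, and the widest separations are those of Eif4a2 at the left and Eif5a at the right.

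The small subunit is readied for scanning by eIF1 and eIF1A, which hold it open until the start codon is met. Eif1 (ENSMUSG00000035530, chr11:100319885-100322096 in GRCm38, plus strand) was at 360, 340 and 295 CPM in inhibitor libraries A, B and C and at 155, 143 and 125 CPM in DMSO libraries A, B and C. Every inhibitor library was far above every DMSO library, and the fold was 2.34 (log2 1.23, SE 0.12, edgeR adjusted p = 0.00141). Eif1 has 13 pseudogene copies among the annotated transcripts, which held 4.21% of the counts of gene and copies together, and with them added the log2 ratio of the means was 1.23. Its paralogue Eif1b, which encodes a nearly identical protein, was at 271, 239 and 266 CPM and at 215, 209 and 206 CPM. The groups did not overlap, but the change of 0.30 (log2, SE 0.08) missed the threshold at an edgeR adjusted p of 0.0574 (with gene length offsets it was called, at log2 0.43 and an edgeR adjusted p of 0.02), and its exons overlap those of a neighbouring transcript over 12.7% of their bases.

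Eif1ax (ENSMUSG00000067194, chrX:159372178-159389928, plus strand) and Eif1a encode near-identical forms of eIF1A. Eif1ax fell from 429, 431 and 387 CPM with DMSO to 218, 194 and 198 CPM with the inhibitor, a level 2.05-fold lower (log2 -1.03, SE 0.09, edgeR adjusted p = 0.000811). All inhibitor libraries lay far below all DMSO libraries. Eif1a was at 86.3, 82.9 and 73.1 CPM with DMSO and at 44.6, 80.4 and 41.7 CPM with the inhibitor (log2 -0.54, SE 0.27, edgeR adjusted p = 0.248). Inhibitor library B set this result: without it the log2 fold change was -0.90 and the edgeR adjusted p 0.022. The remaining gene with this name start, Eif1ad, did not pass the test (log2 -0.09, edgeR adjusted p = 0.675).

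Among the Eif2 genes the machinery of the ternary complex showed no called change. The alpha subunit gene Eif2s1, the target of the stress kinases, was at 191, 198 and 174 CPM with the inhibitor and 209, 200 and 209 CPM with DMSO, with a 95% interval for the log2 fold change from -0.31 to 0.03 and inhibitor libraries just below the DMSO libraries. Eif2s2, the beta subunit, had an interval from -0.12 to 0.25, and the gamma subunit gene Eif2s3x one from -0.77 to 0.24. These intervals are approximate and rather narrow for so few libraries. They leave room for a modest change, widest for Eif2s3x, whose level of 40.8 CPM was the lowest of the 3 with the inhibitor.

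None of the 5 genes of eIF2B, the exchange factor that reloads eIF2 with GTP, was called. Their log2 fold changes ran from -0.22 for Eif2b4 to 0.54 for Eif2b2, and Eif2b2 was the only one of the 5 whose groups did not overlap (136, 147 and 162 CPM against 125, 90.4 and 90.6 CPM, edgeR adjusted p = 0.0691). Of the 2 genes for initiation without the usual eIF2 route, Eif2a had the highest fold change of the Eif2 genes (log2 0.55, SE 0.32, edgeR adjusted p = 0.322), with overlapping groups.

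Eif2d, which encodes a factor that can place tRNA on the small subunit independently of eIF2 and acts in recycling and reinitiation, was the only Eif2 gene called. It was at 103, 60.6 and 82.9 CPM with DMSO and at 40.2, 42.0 and 35.3 CPM with the inhibitor (log2 -1.07, SE 0.21, edgeR adjusted p = 0.0202). The DMSO libraries were spread more widely than the inhibitor libraries. The call was kept only without DMSO library B, and the other 5 removals gave edgeR adjusted p between 0.053 and 0.0721. With the replicate block it was 0.059. Over the 10 tested Eif2 genes the median log2 fold change was 0.09 (0.30 with library size alone, -0.06 with gene length offsets), and 6 lay above and 4 below 0.

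The Eif3 genes encode the large scaffold that binds the small subunit and links it to the mRNA. Of the 14 genes, 1 rose, 3 fell and 10 did not pass the test, and 10 of the 14 had a log2 fold change below 0, as did 2388 of the 4262 well-expressed genes. Eif3g (ENSMUSG00000070319, chr9:20894349-20898623, minus strand), an RNA-binding subunit of the scanning complex, fell from 782, 817 and 745 CPM with DMSO to 466, 498 and 457 CPM with the inhibitor (log2 -0.72, SE 0.07, edgeR adjusted p = 0.0012). Its groups were separated by a wide gap, and it was the only Eif3 gene that kept its call under all alternatives.

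Eif3k, which encodes a peripheral subunit, was at 517, 464 and 482 CPM with DMSO and 343, 399 and 299 CPM with the inhibitor (log2 -0.49, SE 0.12, edgeR adjusted p = 0.0342). Eif3b, a core scaffold subunit, was at 898, 926 and 954 CPM and at 752, 805 and 788 CPM (log2 -0.24, SE 0.06, edgeR adjusted p = 0.0332). Eif3c, the core subunit next to Eif3a, moved the other way, from 342, 317 and 330 CPM to 394, 407 and 406 CPM (log2 0.29, SE 0.07, edgeR adjusted p = 0.033). The changes of Eif3b and Eif3c were smaller than that of Eif3g, with tight libraries. Eif3b and Eif3c lost the call whichever library was removed (edgeR adjusted p up to 0.109 and 0.113), and Eif3k kept it only without inhibitor library B. With the replicate block the edgeR adjusted p was 0.076 for Eif3k, 0.0889 for Eif3b and 0.105 for Eif3c.

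Eif3a, the largest core subunit, had the highest fold change of the family at log2 0.75 (SE 0.25, edgeR adjusted p = 0.102), with 149, 152 and 84.6 CPM against 77.5, 88.7 and 63.4 CPM. Inhibitor library C stood apart from the other inhibitor libraries, and without it the log2 fold change was 0.975 and the edgeR adjusted p 0.0286. Eif3j1 and Eif3j2 are 99.4% identical over 2379 aligned bases, so reads cannot be divided between them with confidence. Summed, they were at 34.4, 31.8 and 31.2 FPKM with the inhibitor and 24.7, 26.4 and 20.4 FPKM with DMSO, and neither was called alone (edgeR adjusted p = 0.126 and 0.0884). The median over the Eif3 genes was -0.10, which became 0.11 with library size alone. Steady-state levels differed widely among subunits of the same complex, from 11.3 FPKM for Eif3j2 to 652 FPKM for Eif3g with DMSO.

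The cap-binding and unwinding genes showed both directions: of 16 tested Eif4 genes 3 rose, 2 fell and 11 did not pass the test. Eif4a2 (ENSMUSG00000022884, chr16:23107444-23114136, plus strand), 1 of the 2 genes for the eIF4A helicase, was at 236, 213 and 194 CPM with the inhibitor and at 63.2, 58.7 and 67.3 CPM with DMSO. It rose 3.4-fold (log2 1.76, SE 0.12, edgeR adjusted p = 0.00036), the highest fold change among the called factor genes. Exons of other genes, Snora81, Snord2 and Rfc4 among them, overlap 13.3% of its annotated exon bases, and gene counts do not separate its transcript forms. Eif4a1, the other helicase gene, was at 128, 116 and 101 CPM with the inhibitor and 130, 114 and 144 CPM with DMSO, with a 95% interval of its log2 fold change from -0.44 to 0.10.

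On the per-length scale Eif4a1 exceeded Eif4a2 by 3.71, 3.5 and 3.86 in DMSO libraries A, B and C, whereas in the inhibitor libraries the ratio was 0.976, 0.981 and 0.937. Eif4a2 therefore supplied 20.6% to 22.2% of the summed Eif4a1 and Eif4a2 FPKM with DMSO and 50.5% to 51.6% with the inhibitor. The ratios did not overlap, and the exact two-sided permutation test over the 6 libraries gave p = 0.1, the smallest that 3 against 3 allows (0.183 after Benjamini-Hochberg over 11 pairs). The summed FPKM of the 2 genes was 133, 122 and 108 in the inhibitor libraries and 85.6, 75.7 and 94.3 in the DMSO libraries.

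Eif4b, the RNA-binding cofactor of the helicase, was at 141, 114 and 178 CPM with the inhibitor and 86.8, 75.1 and 83.0 CPM with DMSO (log2 0.82, SE 0.18, edgeR adjusted p = 0.0252). The groups were separate, though the inhibitor libraries were spread widely, and the call was kept only without inhibitor library B among the 6 removals. It was also lost with gene length offsets (log2 0.58, edgeR adjusted p = 0.0879). The related cofactor gene Eif4h did not pass the test (log2 -0.31, edgeR adjusted p = 0.131).

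Eif4e, the cap-binding protein itself, fell from 253, 253 and 300 CPM to 164, 202 and 156 CPM (log2 -0.63, SE 0.13, edgeR adjusted p = 0.0227). Eif4ebp1 (ENSMUSG00000031490, chr8:27260329-27276674, plus strand), the repressor that binds eIF4E and competes with the scaffold, rose from 451, 415 and 408 CPM to 801, 906 and 815 CPM, 1.98-fold (log2 0.99, SE 0.08, edgeR adjusted p = 0.000642). In each gene the 2 groups were apart, with the gap wide in Eif4ebp1 and narrower in Eif4e. The call of Eif4e was kept only without inhibitor library B (edgeR adjusted p 0.0554 to 0.0748 in the other 5 removals, and 0.0716 with the replicate block), while that of Eif4ebp1 was kept in all 6.

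The paralogues of these genes were less abundant or not called. Eif4ebp2 was near 5 CPM in both groups (5.44 and 5.12 CPM, log2 0.09, SE 0.47). Eif4e2, a cap-binding homologue tied to repression, had a log2 fold change of -0.15 (SE 0.09, edgeR adjusted p = 0.351). It was -0.475 and called with gene length offsets (edgeR adjusted p = 0.02) and 0.06 with library size alone. Eif4e3 had a log2 fold change of 0.49 (SE 0.37, edgeR adjusted p = 0.448). The ratio of Eif4e to Eif4e2 in FPKM was 1.25, 1.59 and 1.14 with the inhibitor and 1.7, 1.89 and 1.92 with DMSO, so the 2 sets did not overlap. The scaffold genes Eif4g1, Eif4g2 and Eif4g3 had log2 fold changes of 0.22, -0.06 and 0.59 with overlapping groups in all 3, and their levels were low per length, at most 4.73 FPKM on average with DMSO.

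Eif4a3, the helicase of the exon junction complex that marks spliced mRNA, was at 740, 873 and 822 CPM with DMSO and 591, 684 and 582 CPM with the inhibitor (log2 -0.39, SE 0.09, edgeR adjusted p = 0.0365). It kept the call without inhibitor B and without DMSO A, and lost it in the other 4 removals (edgeR adjusted p up to 0.112). Its near-copies Eif4a3l1 and Eif4a3l2 held only 0.725 and 2.39 CPM with DMSO, and since they share sequence with Eif4a3 these reads are uncertain. Eif4a3l1 had the lowest fold change of the Eif4 genes (log2 -0.73, SE 0.59, edgeR adjusted p = 0.49). The median of the Eif4 genes was 0.01, or 0.22 with library size alone.

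**Figure D4:**
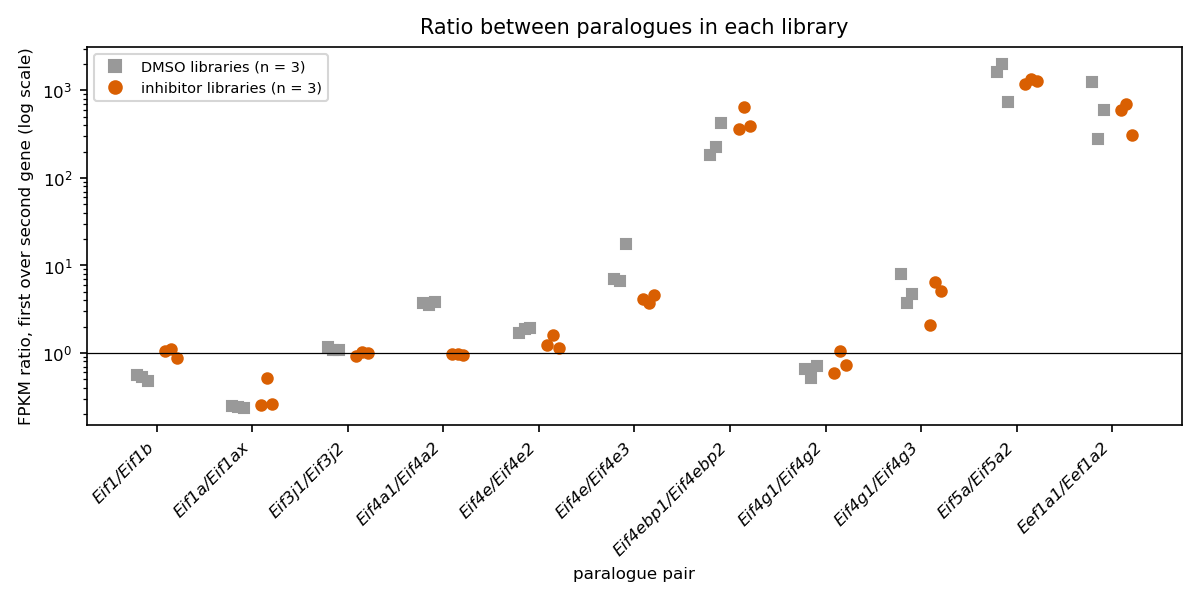
FPKM ratio of the first to the second gene of 11 paralogue pairs (log axis) in each DMSO library (grey squares) and inhibitor library (orange circles); the line marks equal FPKM. Eif4a1 over Eif4a2 drops from about 3.68 to 0.964 in geometric mean, and Eif1 over Eif1b goes from 0.526 to 1.002.

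In 6 of the 11 pairs the ratios of the 2 groups did not overlap, each with an exact permutation p of 0.1 (0.183 adjusted over the 11 pairs), which the design cannot lower. Beside Eif4a1 with Eif4a2 and Eif4e with Eif4e2 these were Eif1 with Eif1b, Eif1a with Eif1ax, Eif3j1 with Eif3j2, and Eif4e with Eif4e3. The pairs that hold Eif4e share a gene and are not independent. No share was taken over other gene pairs, so the count has no background. Among single well-expressed genes, the inhibitor libraries lay wholly above in 23.6% and wholly below in 33.4%. The ratio of Eif3j1 to Eif3j2 rests on the uncertain division of reads between these near-identical genes. Eif1 stood at 0.566, 0.539 and 0.478 of the FPKM of Eif1b with DMSO and at 1.04, 1.11 and 0.867 with the inhibitor. In the Eif1a and Eif1ax pair the separation was narrow, with 0.254, 0.515 and 0.262 against 0.249, 0.239 and 0.235. In the remaining 5 pairs, Eif4ebp1 with Eif4ebp2, Eif4g1 with Eif4g2, Eif4g1 with Eif4g3, Eif5a with Eif5a2 and Eef1a1 with Eef1a2, the ratios overlapped.

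Joining of the subunits and the steps after it gave the strongest single decrease. Eif5a (ENSMUSG00000078812, chr11:69916714-69921958, minus strand) encodes the hypusine-bearing factor that helps the ribosome through difficult peptide bonds and in termination, and it was the most abundant factor gene with DMSO, at 793 FPKM on average. It fell from 2104, 1916 and 2136 CPM in DMSO libraries A, B and C to 741, 764 and 782 CPM in inhibitor libraries A, B and C, a level 2.69-fold lower (log2 -1.43, SE 0.06, 95% interval -1.55 to -1.31, edgeR adjusted p = 0.000102). Every inhibitor library was far below every DMSO library. In bulk RNA, less RNA per cell and fewer cells with the RNA cannot be told apart.

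Its paralogue Eif5a2 was rare, at 1.34, 1.2 and 1.29 CPM with the inhibitor and 2.75, 2.03 and 6.11 CPM with DMSO (log2 -1.51, SE 0.59, edgeR adjusted p = 0.153). It had the lowest fold change of the Eif5 genes but rested on few reads, with DMSO library C high. Eif5, the GTPase-activating protein of eIF2, rose from 571, 486 and 454 CPM to 783, 669 and 856 CPM (log2 0.61, SE 0.12, edgeR adjusted p = 0.0203). Its call was kept without inhibitor B and without DMSO A only, and gene length offsets gave log2 0.36 (edgeR adjusted p = 0.124). With the replicate block the edgeR adjusted p was 0.0513. Eif5b, the GTPase of subunit joining, had separate groups and a log2 fold change of 0.43 without passing the test (edgeR adjusted p = 0.094).

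Eif6, which keeps free large subunits from joining the small ones and serves in their assembly, fell from 1192, 1271 and 1236 CPM to 920, 871 and 816 CPM (log2 -0.50, SE 0.06, edgeR adjusted p = 0.00386). The decrease was modest in size, with the groups far apart relative to their spread, and the call was kept under every alternative.

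Of the 14 Eef genes none rose, 2 fell and 12 did not pass the test. The factor that delivers tRNA, Eef1a1, was at 880, 820 and 822 CPM with the inhibitor and 961, 912 and 1039 CPM with DMSO (log2 -0.21, SE 0.07, edgeR adjusted p = 0.0975). It has 11 pseudogene copies with 9.24% of the joint counts, and the log2 ratio was -0.19 with them added. With library size alone its log2 fold change was 0.00. Eef1a2, the form of muscle and neurons, was near 2 CPM in both groups (2.06 and 2.23 CPM).

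The exchange complex that reloads eEF1A is encoded by Eef1b2, Eef1d and Eef1g. In all 3 the inhibitor libraries lay below the DMSO libraries after TMM, as they did in 33.4% of the well-expressed genes. Only Eef1g was called: 611, 652 and 586 CPM with DMSO and 485, 389 and 490 CPM with the inhibitor (log2 -0.44, SE 0.11, edgeR adjusted p = 0.0367). The call ended whichever library was removed (edgeR adjusted p 0.0504 to 0.115) and with the replicate block (0.0992), and with library size alone its log2 fold change was -0.23. Eef1d and Eef1b2 had log2 fold changes of -0.49 and -0.19 (edgeR adjusted p = 0.0764 and 0.123).

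Eef2, the translocase, was at 541, 539 and 517 CPM with the inhibitor and 525, 562 and 545 CPM with DMSO. The approximate 95% interval of its log2 fold change ran from -0.15 to 0.09, which leaves little room for a large change in this scaling. The eEF2 kinase gene Eef2k was rare, at 4.27 and 1.71 CPM with overlapping groups. Of the 6 methyltransferase genes only Eef1akmt1, whose product methylates a lysine of eEF1A, was called: 33.6, 51.3 and 49.1 CPM with DMSO and 15.9, 23.2 and 13.3 CPM with the inhibitor (log2 -1.36, SE 0.28, edgeR adjusted p = 0.0227). All inhibitor libraries were lower, and the call was kept only without inhibitor B and without DMSO A (edgeR adjusted p up to 0.0777 otherwise).

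Eef1akmt3 had the highest fold change of all factor genes at log2 3.19, but with an SE of 1.3 and an edgeR adjusted p of 0.165. Its values were 0.361, 0.859 and 4.46 CPM with the inhibitor and 0.164, 0.416 and 0.0368 CPM with DMSO, so that inhibitor library C carried the difference and the groups overlapped. The median over the Eef genes was -0.22, with 11 of 14 below 0, and it was -0.01 with library size alone.

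Summed over all 67 genes, the factors took 15040, 15230 and 15000 CPM in the inhibitor libraries and 17570, 17120 and 17270 CPM in the DMSO libraries. Without Eif5a the sums were 14290, 14470 and 14210 CPM against 15470, 15210 and 15130 CPM. These sums turn on the scaling: by library size alone, the 67 genes summed to between 16030 and 16420 CPM with the inhibitor and between 15890 and 16460 CPM with DMSO, which overlap, and without Eif5a the inhibitor libraries were the higher ones (15240 to 15570 against 13920 to 14490 CPM). The summed Eif4 genes were above in the inhibitor libraries by both scalings, at 2551 to 2736 against 2293 to 2363 CPM after TMM. This rests on the repressor gene Eif4ebp1: without it the sums were 1736 to 1830 CPM with the inhibitor and 1842 to 1955 CPM with DMSO after TMM, which is the opposite order, and 1901 to 1934 against 1726 to 1799 CPM by library size alone. The summed Eif3 and Eef genes were below after TMM and overlapped by library size alone.

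Levels and changes both moved with gene length. Across the 64 tested factor genes Spearman's rho was -0.45 between length and mean FPKM and 0.30 between length and log2 fold change, and across all 15082 tested genes these were -0.25 and 0.27. Length was taken as counts over the authors' FPKM, which is proportional to the length they used. FPKM thus enters both sides of the rho between length and FPKM, which favours a negative value. The genes share their libraries, so these values are descriptions. With gene length offsets 15 factor genes were called, beside 13.6% of all tested genes. Of these 15, 11 were among the 17, and Eif4b, Eif5, Eif3c, Eif3k, Eif4a3 and Eef1g lost the call.

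Outside the name rule, 61 genes of the translation pathway, listed by role, were all tested: 5 rose, 2 fell and 54 did not pass the test, that is 11.5% called, below the 14.8% of all tested genes. Around the ternary complex and the integrated stress response, 2 of 8 rose. Ddit3, the stress-induced transcription factor CHOP, rose from 22.5, 18.3 and 16.8 CPM to 263, 286 and 332 CPM (log2 3.935, SE 0.16, edgeR adjusted p = 0.000102), and Ppp1r15a, the subunit that directs a phosphatase to eIF2, from 17.9, 18.02 and 29.6 CPM to 79.2, 101 and 114 CPM (log2 2.17, SE 0.26, edgeR adjusted p = 0.00315). Both were separated by wide gaps. Atf4 had separate groups too, at 591 and 429 CPM on average, without passing the test (log2 0.46, edgeR adjusted p = 0.0592), and none of the 4 Eif2ak kinase genes was called.

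Of 15 genes of TOR and cap signalling, Sesn2, an inhibitor of that pathway induced by stress, rose from 81.1, 94.4 and 69.9 CPM to 183, 182 and 192 CPM (log2 1.18, SE 0.13, edgeR adjusted p = 0.00229). Pdcd4, which binds eIF4A and blocks it, fell from 119, 121 and 129 CPM to 75.5, 44.7 and 62.5 CPM (log2 -1.01, SE 0.20, edgeR adjusted p = 0.0183). The remaining 13 did not pass the test. Gspt1, the release factor eRF3, was the only 1 of 6 termination and recycling genes called (14.3 against 27.2 CPM, log2 -0.93, SE 0.21, edgeR adjusted p = 0.0288).

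Of 10 mitochondrial translation factors, Guf1 and Mtif3 rose (log2 1.11, SE 0.17, edgeR adjusted p = 0.0083 and log2 1.19, SE 0.24, edgeR adjusted p = 0.0203). None was called among 5 poly(A)-binding genes, 6 scanning helpers, 9 genes of hypusine and diphthamide synthesis and 2 of selenocysteine elongation. The enzymes that make hypusine on eIF5A, Dhps and Dohh, were at 62.3 and 79.2 CPM with the inhibitor and 62.4 and 73.1 CPM with DMSO.

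**Figure D5:**
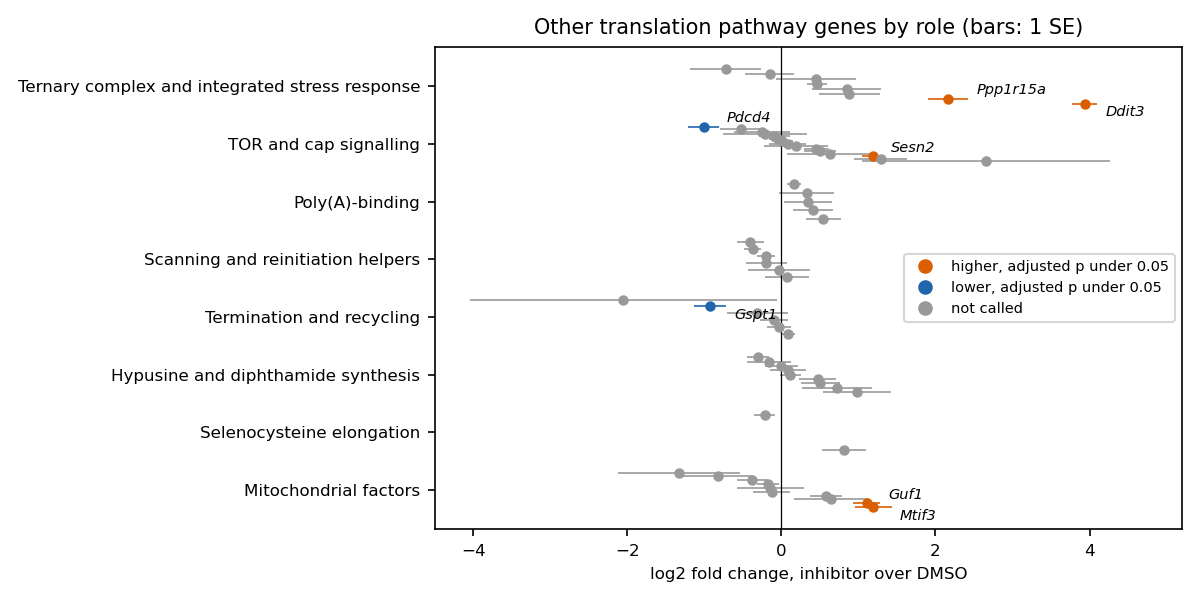
Log2 fold change of inhibitor over DMSO (horizontal axis, bars of 1 standard error) for 61 translation pathway genes outside the name rule, arranged by role; orange marks the 5 called higher, blue the 2 called lower and grey the 54 not called. Ddit3 at 3.935 and Ppp1r15a at 2.17 lie farthest to the right among the called genes.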

How the data were processed

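RNA-seq libraries (Smart-seq2 with Nextera XT, NovaSeq, paired-end, not strand specific) from 3 inhibitor and 3 DMSO samples were used. Per the study's methods, reads were mapped to GRCm38 with STAR and alignments over Ensembl basic transcripts were counted in union mode without regard to strand, then summed per gene. The submitters' processing notes name STAR 2.7.9a, Picard 2.19.2, R 4.1.3 and DESeq2 1.34.0. The deposited tables hold raw counts for each gene and FPKM, which the authors scaled per length and between libraries. CPM values here come from these counts and the TMM-scaled library sizes. Count mode discards alignments over several features, and lacking strand, reads of overlapping genes cannot be told apart. Table columns carry the group and a letter, which does not match the replicate numbers of the labels.

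Counts were tested with edgeR 4.0.16 (glmQLFit and glmQLFTest, TMM, filterByExpr set to min.count 10 and min.total.count 15, R 4.3.3), with Benjamini-Hochberg adjustment over 15082 genes and calls at an adjusted p under 0.05. The SE of a log2 fold change is its size over the square root of F. The 95% intervals use this SE with a normal multiplier, so they are approximate and narrower than the F test implies. That of Eif3d, for example, ran from -0.30 to -0.01 at an edgeR p of 0.0785 before adjustment. Alternatives were DESeq2 1.42.0, RLE factors, library size alone, other count filters, a replicate block by column letter, gene length offsets, limma-trend 3.58.1 on log2(FPKM + 1) and log2(FPKM + 0.1) with FPKM of at least 1 in 3 libraries, and leaving out each library. Paralogue ratios were compared by exact permutation, two-sided, smallest p 0.1. Copies are annotated GENCODE vM21 transcripts of at least 95% identity over at least 300 aligned bases. Depth ranged from 59070705 to 94747943 counts. Genes named are the called ones, the extremes of each family, members of the paralogue pairs and called pathway genes. Other genes given with values, such as further subunits of a complex, were chosen after their values were seen. The members and lists were chosen with earlier results of these data known. A marker of the alpha cell list is not reported here.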

Additional observations from a re-analysis of the deposited data

How the results depend on the processing

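The factor genes called, 17 (6 higher, 11 lower), became 30 (13 higher, 17 lower) with DESeq2, 12 (5 and 7) with no filter on low counts, 10 (4 and 6) with the replicate block, 10 (3 and 7) with gene length offsets and the block together, 12 (5 and 7) with limma-trend on unfiltered log2(FPKM + 1), and 6 (2 and 4) by the study's thresholds. With library size alone 13 were higher and 6 lower. Over all tested genes the share called was 14.8% in the first fit and 24.3% with DESeq2. It was 7.71% with no filter, 8.17% with the block, 7.19% with length offsets and the block, and 7.92% with unfiltered limma-trend. By the study's thresholds it was 10.4%, and with library size alone 16.1%. With 1 library left out, 7 to 15 were called, 3 to 5 of them higher and 4 to 10 lower. The study describes the treatments within a replicate of its cell culture work as sharing a batch of cells. No source ties the column letters to those replicates, and libraries with the same letter hardly deviated together (correlation of deviations 0.017, 0.002 and 0.026 for A, B and C). Whether the letters mark pairs is thus unknown. The replicate block ended 7 of the 17 calls and changed no other call among the factor genes. The sum of Eif4 genes without Eif4ebp1 was added after seeing the data. The cause of these shifts was not tested beyond the fewer samples or altered filter.

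Medians moved by more than the spread between replicates with library size alone, to 0.30 for Eif2, 0.11 for Eif3, 0.22 for Eif4 and -0.013 for Eef. They also moved for Eif2 with gene length offsets (-0.057, and -0.068 with the block), for Eif3 with libraries left out (-0.152 to -0.079), and for Eef with limma on FPKM + 1 or + 0.1 (-0.45 and -0.45) and with libraries left out (-0.33 to -0.22). Depth limits statements on Eif5a2, Eef2k, Eef1akmt3 and the Eif4a3 copies, each under 5 CPM on average.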
